A study of Mus musculus with 10 samples.

Results

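Chains of p63 peaks are the subject here: runs of at least 3 peaks in which each peak midpoint lay at most 10 kb from the next. They were chosen by the positions of the deposited peaks alone: midpoints on chromosomes 1 to 19 were sorted and neighbours within that distance were joined. There were 228 chains, which held 778 of the 8294 peaks on those chromosomes (9.38%, 95% Wilson interval 8.77 to 10.03) and of 8451 peaks in all. Peaks enter a chain in sets of at least 3, so this interval, which takes them as independent, is too narrow. The peaks came from chromatin immunoprecipitation and sequencing (ChIP-seq) of p63 in MK1 and MK2, a pair of keratinocyte lines from the mouse that the submitters call similar. The labels record no treatment, genotype or strain for either line. There were 10 libraries in 5 groups, each with 1 library of MK1 and 1 of MK2, namely p63 ChIP, H3K4me1 ChIP, H3K4me3 ChIP, H3K27ac ChIP and input chromatin. The peak list joined both p63 libraries and gives positions only, so depth is unknown and no value has a spread between lines. Values from the histone and input libraries are not used here. All positions refer to mm10 and count from 1.

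p63 is a transcription factor of the p53 family and is needed to form stratified epithelia such as the epidermis. It binds DNA as a tetramer, mostly at enhancers, on a site made of a pair of adjacent half-sites like those of p53. Genes that define the identity of a cell often carry several enhancers in a row, each with its own bound factors, and a run of peaks is one way such a stretch appears in ChIP-seq data.

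The following sequences are shown because a chain peak lay over the annotated start of the gene or just before it, or, for the microRNA, because a chain began beside it. They were taken from RefSeq tables of GRCm38.p6, which has the chromosome coordinates of mm10. In the promoter sequences each run is the DNA upstream of the start that fell inside the peak, on the gene's own strand, and capitals mark the best match to the p53-family full site, meaning a pair of adjacent half-site consensuses with at most 3 mismatches in 20 bases. Where no such match was present the run is in lower case throughout. The promoters printed are a selection from 24 promoter windows of 300 bases that a chain peak overlapped, and they do not represent that set. Matches are more frequent among those printed: of the 24 windows, 8 (33.3%) held a match with at most 3 mismatches anywhere in the window. Cdkn1a encodes the cell cycle inhibitor p21, Rgs12 a regulator of G protein signalling, Tmigd1 a membrane protein of the immunoglobulin family, Tnks2 a tankyrase, Col17a1 the collagen of hemidesmosomes, and Dst the hemidesmosomal plakin BPAG1.
Cdkn1a, chr17:29090751-29090978, plus strand: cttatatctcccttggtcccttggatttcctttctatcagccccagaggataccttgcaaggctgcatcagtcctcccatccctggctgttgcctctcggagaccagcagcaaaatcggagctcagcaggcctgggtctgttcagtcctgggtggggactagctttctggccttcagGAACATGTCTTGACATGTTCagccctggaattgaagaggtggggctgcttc
Rgs12, chr5:34998828-34999077, plus strand: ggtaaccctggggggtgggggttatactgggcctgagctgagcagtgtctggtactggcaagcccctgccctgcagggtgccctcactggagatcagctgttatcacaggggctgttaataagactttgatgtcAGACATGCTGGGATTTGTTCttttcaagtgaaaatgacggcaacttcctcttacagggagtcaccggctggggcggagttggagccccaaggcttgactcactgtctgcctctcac
Tmigd1, chr11:76901909-76902062, plus strand: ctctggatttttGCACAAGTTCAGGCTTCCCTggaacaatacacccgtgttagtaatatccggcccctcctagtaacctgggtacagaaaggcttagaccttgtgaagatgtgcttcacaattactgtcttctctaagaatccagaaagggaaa
Tnks2, chr19:36833982-36834231, plus strand: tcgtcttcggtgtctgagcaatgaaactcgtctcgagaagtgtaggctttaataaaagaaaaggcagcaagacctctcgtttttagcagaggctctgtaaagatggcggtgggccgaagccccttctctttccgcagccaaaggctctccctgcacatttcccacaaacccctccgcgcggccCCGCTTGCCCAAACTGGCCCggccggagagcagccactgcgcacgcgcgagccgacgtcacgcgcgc
Col17a1, chr19:47692043-47692181, minus strand: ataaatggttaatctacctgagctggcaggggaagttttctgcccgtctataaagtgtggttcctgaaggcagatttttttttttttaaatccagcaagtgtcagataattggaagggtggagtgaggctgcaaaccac
Dst, chr1:34160010-34160259, plus strand: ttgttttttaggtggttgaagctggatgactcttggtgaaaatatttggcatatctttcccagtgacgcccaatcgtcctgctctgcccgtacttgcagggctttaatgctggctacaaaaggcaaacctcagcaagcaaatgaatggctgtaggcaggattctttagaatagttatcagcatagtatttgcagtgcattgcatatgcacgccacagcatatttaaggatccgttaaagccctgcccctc

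The Cdkn1a match differed from the full site at 1 of 20 bases. It began 51 bases before an annotated start at 29090979, the lower edge of the gene. Its distance to other starts of the gene is not given here. The matches at Rgs12 and Tmigd1 had 2 mismatches each, and that at Tnks2 had 3. The Col17a1 and Dst stretches held none, which says only that these letters are not in these windows. The table holds 31396 promoter windows of 300 bases on the chromosomes used and does not cover every gene. Of these windows, 24 overlapped a chain peak and 321 overlapped a peak in no chain. A window needed only to touch a peak, so a match can lie in its part outside the peak. On either strand, a full site with at most 2 mismatches was present in 3 of 24 windows at chain peaks (12.5%), in 38 of 321 at other peaks (11.8%) and in 252 of all 31396 windows (0.803%). With at most 3 mismatches, the limit used for the capitals, it was present in 8 of 24 (33.3%), 94 of 321 (29.3%) and 1975 of 31396 (6.29%). A half-site with no mismatch, which can lie within a full site, was present in 6 of 24, 59 of 321 (18.4%) and 2623 of 31396 (8.36%). The word TGANTCA, the core of the AP-1 motif, was present in 3 of 24 (12.5%), 57 of 321 (17.8%) and 2463 of 31396 (7.84%). With only 24 windows at chain peaks, no difference from the other peaks is read from these shares. Among the upstream stretches that lay inside a chain peak, only that of Cdkn1a held a half-site with no mismatch, and it held 2. They are not the 2 parts of the full-site match: 1 is the first 10 bases of the capitals and the other lies before them, in lower case.

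The microRNA Mir205 is abundant in stratified epithelia. Its precursor lay at 193507463 to 193507530 on the minus strand of chromosome 1, 0.5 kb below a chain of 5 peaks. Both of its mature products are shown, with the seed, bases 2 to 8, in capitals.
mmu-miR-205-5p: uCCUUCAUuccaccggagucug
mmu-miR-205-3p: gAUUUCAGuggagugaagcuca

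The chain count was set by the joining rule and is a description. Most chains were short: 161 of 228 (70.6%) held 3 peaks, 48 held 4, 12 held 5, 6 held 6 and 1 held 7. Of the 6918 groups left after joining, 5864 were single peaks and 826 were pairs. Among groups of at least 1, 2 and 3 peaks, the share that had 1 more was 15.2% (interval 14.4 to 16.1), 21.6% (interval 19.3 to 24.2) and 29.4% (interval 23.9 to 35.6). These shares rose up to groups of at least 3 peaks, but the intervals for at least 2 and at least 3 overlap. Of the 67 groups of at least 4, 28.4% (interval 18.97 to 40.1) had another. No test was made and nothing is read from the rise, because the rule fixed these counts and there was 1 peak list.

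**Figure D1:**
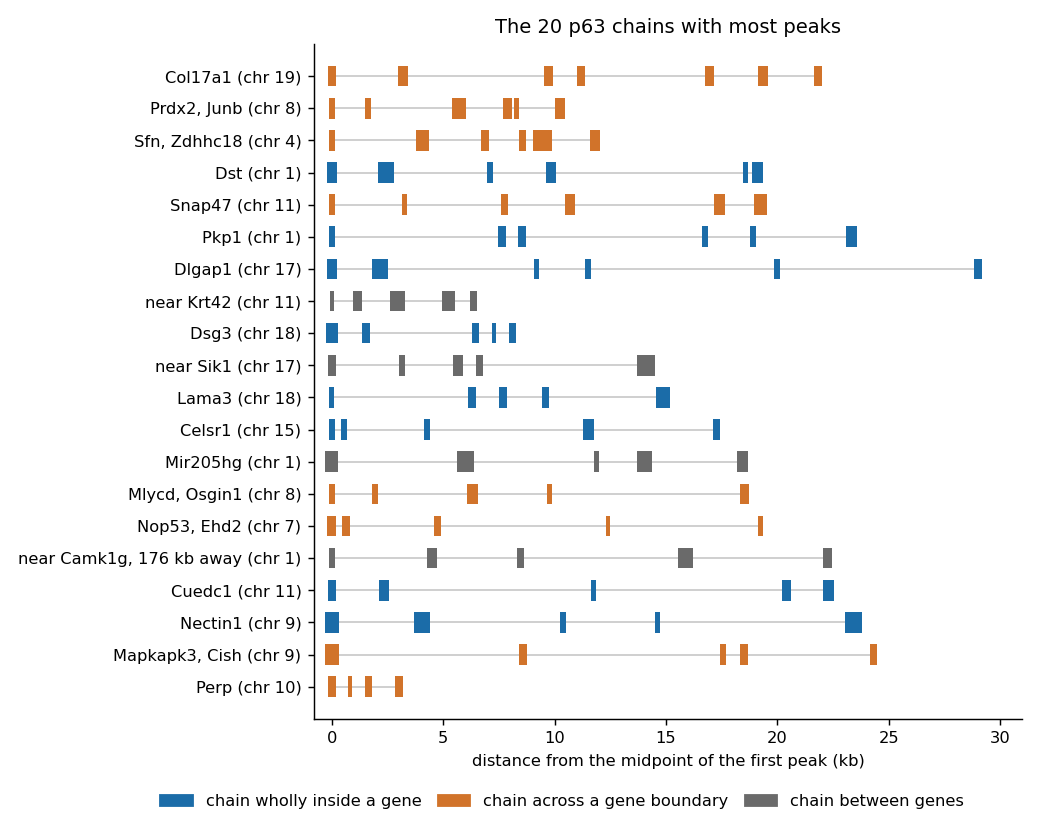
Peaks of the 20 chains with most peaks, as bars drawn to scale in width, against distance in kb from the midpoint of each chain's first peak; colours give the position of the chain relative to protein-coding genes. The Col17a1 chain holds 7 peaks over 21.8 kb. The Perp chain, in the last place because ties went to the shorter span, packs 4 into 3.02 kb.

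From the first midpoint to the last, the median chain spanned 10019 bp. The middle 50% of chains spanned 6135 to 13421 bp, the shortest 1301 bp and the longest 29002 bp. Together their extents covered 2.42 Mb, and peaks filled a median of 12.0% of a chain's extent. Inside chains, the 550 distances between neighbouring midpoints had a median of 3713 bp and quartiles of 1632 and 6579 bp. In the 826 pairs the distance had a median of 3795 bp and quartiles of 1649 and 6642 bp. Neighbours within 1 kb made up 14.2% of the distances in chains and 14.4% of those in pairs. The joining limit of 10 kb cuts off both sets of distances, so nothing is read from how close these values lie. Mean spacing ranged from 650.5 bp in a chain at the start of Tnks2 to 9534 bp in one across the end of Slc12a3, followed by chains at Ktn1 (9.38 kb) and Ostf1 (9.22 kb). The plot of spacing has no gap at 10 kb: 91 neighbouring pairs of peaks lay 9 to 10 kb apart and 92 lay 10 to 11 kb apart. The distances just inside the limit were 9984, 9996 and 10000 bp, and those just outside it 10012, 10016 and 10025 bp.

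**Figure D2:**
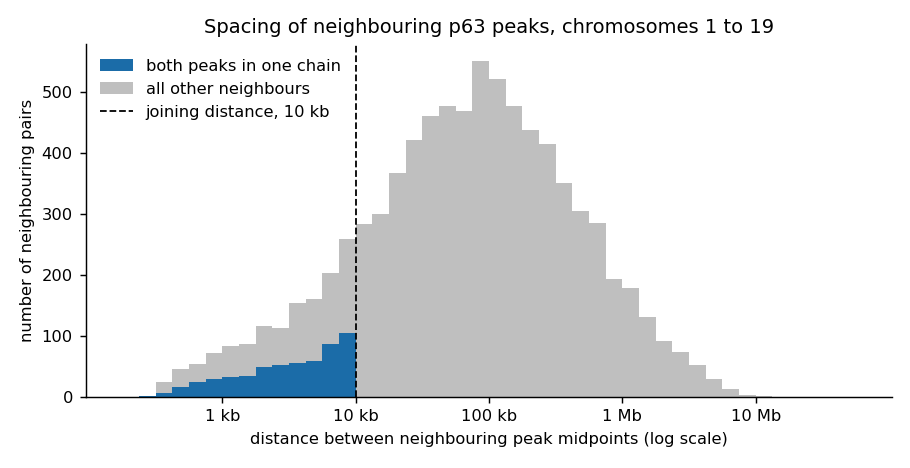
Distance between neighbouring peak midpoints on chromosomes 1 to 19 on a log axis, with the number of pairs in each bin; blue marks neighbours in one chain and grey all others. The 550 distances inside chains lie at or below 10 kb, the dashed line, with 91 distances of 9 to 10 kb and 92 of 10 to 11 kb on either side of it.

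Chains themselves were mostly far apart, with a median of 2759 kb to the nearest other chain. A total of 15 chains (6.58%) had another within 50 kb, and these formed 7 neighbourhoods. The largest lay at Sdc1, which encodes the proteoglycan syndecan 1, with 3 chains and 12 peaks over 109.6 kb (chromosome 12, 8776093 to 8885679). At Col17a1, 2 chains with 10 peaks covered 42.6 kb, and above Mir205, 2 chains with 10 peaks covered 60.9 kb. The others lay at Rgs12, at Sun1, which encodes a nuclear envelope protein, inside Auts2, and between Opa1 and the Notch effector gene Hes1.

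By chromosome, the share of peaks that lay in chains ranged from 3.08% on chromosome 13 (3 chains, 10 of 325 peaks) to 15.2% on chromosome 19 (12 chains, 41 of 269 peaks). Per 100 Mb of annotated length, chromosome 19 had 20.6 chains and chromosome 13 had 2.56. Chromosome 2 had the most chains, 20. The X chromosome, outside the rule, had 155 peaks and 1 chain of 3.

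**Figure D3:**
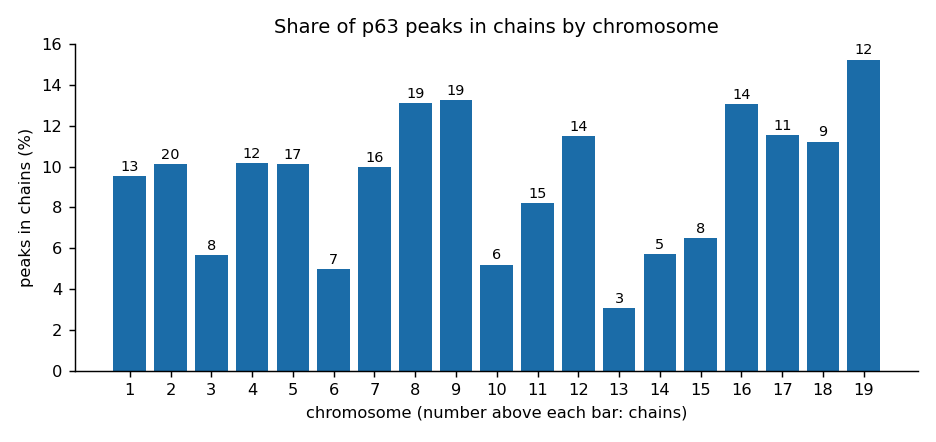
Share of the p63 peaks of each chromosome that lay in chains, in percent, with the number of chains above each bar. Chromosomes 8, 9, 16 and 19 have the highest shares, from 13.0% to 15.2%, and chromosome 13 the lowest, 3.08%.

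Peak width was not used to choose the chains. Chain peaks had a median width of 338.5 bp (quartiles 256 and 442, n = 778), peaks of pairs 316 bp (quartiles 249 and 406, n = 1652) and single peaks 299 bp (quartiles 239 and 382, n = 5864). At the wide end, 128 chain peaks (16.5%) and 775 of 7516 peaks in no chain (10.3%) were at least 500 bp wide. At 800 bp or more were 19 chain peaks (2.44%), 11 peaks of pairs (0.666%) and 56 single peaks (0.955%). The chain median was above that of peaks in no chain on 18 of 19 chromosomes, and below it on chromosome 3 (276 against 301 bp). It was above the median of pairs on 13 of 19. All widths come from 1 list, so the difference of 35.5 bp between chain peaks and peaks in no chain could not be tested over samples, and peak height, which can move with width, was not analysed here. Width did not grow with chain size from 3 to 4 peaks: the medians were 334 bp in chains of 3, 334.5 bp in chains of 4 and 354 bp in chains of 5 or more.

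**Figure D4:**
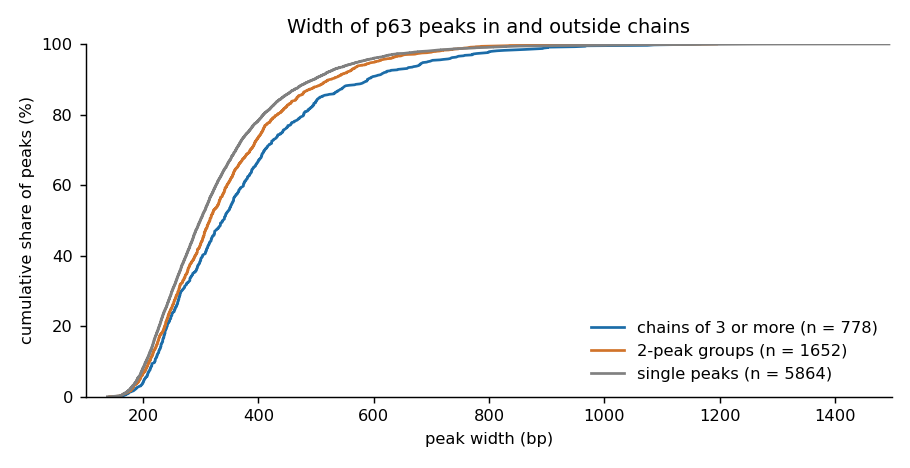
Cumulative share of peaks in percent against peak width in bp, for peaks of chains, of pairs and single peaks. The curve of chain peaks lies to the right for most of its length, with medians of 338.5, 316 and 299 bp.

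Within a chain, widths were uneven. The widest peak was a median of 1.83 times as wide as the narrowest, with a range of 1.05 to 4.51 times. Inner peaks had a median of 346 bp (n = 322) and the first and last peaks 334 bp (n = 456). Among chains of 3, the middle peak was the widest in 59 of 161 (36.6%). The widest chain peak, 1166 bp, lay beside Krt5.

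Relative to protein-coding genes, 162 of 228 chains overlapped at least 1 (71.1%, interval 64.9 to 76.6). Of 826 pairs 489 did (59.2%, interval 55.8 to 62.5), and of 5864 single peaks 3149 did (53.7%, interval 52.4 to 55.0). A longer extent meets a gene more often, so these 3 shares are not directly comparable. In all, 93 chains (40.8%) lay wholly inside a gene, 69 (30.3%) crossed a gene boundary and 66 (28.9%) lay between genes. Of the 66, 24 overlapped a non-coding gene.

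Peak by peak, where extent plays no part, 53.2% of chain peaks (interval 49.7 to 56.7) and 48.6% of peaks in no chain (interval 47.5 to 49.8) had the midpoint inside a gene, over 1 kb from its ends. Within 1 kb of a gene boundary were 9.13% of chain peaks (interval 7.30 to 11.4) and 7.60% of the others (interval 7.02 to 8.22). Between genes and over 25 kb from any were 13.8% of chain peaks (interval 11.5 to 16.4) and 22.4% of the others (interval 21.5 to 23.4). The median distance to a gene boundary was 11.2 kb for chain peaks, 17.4 kb for peaks of pairs and 18.6 kb for single peaks. Peaks of 1 chain share their place, so these intervals, which cover counting error and take peaks as independent, are too narrow. Among peaks inside genes whose strand the promoter table gives, 40.3% of 315 chain peaks and 39.6% of 3115 other peaks lay in the part of the gene nearest its start, when the gene was cut in 3 equal parts. The middle part held 26.7% and 32.4%, and the last part 33.0% and 27.99%.

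Genes of epidermal adhesion held several of the largest chains. Hemidesmosomes tie basal cells to the basement membrane. At Col17a1 the 7 peaks lay at 47688574 to 47710759 on chromosome 19. Their midpoints were 3.30 and 0.089 kb inside the gene and from 6.42 to 18.5 kb upstream of its start. Widths were alike, from 341 to 457 bp, so no single peak dominated this chain by width. A second chain of 3 peaks lay 15.4 kb farther upstream, ending 0.533 kb from Sfr1, which encodes a DNA recombination factor. Dst held 6 peaks at 34140840 to 34160416 on chromosome 1, inside its 400.8 kb body. Relative to a start that the promoter table gives within the gene, where minus means upstream, the 2 nearest midpoints lay at -0.104 and -0.624 kb. Lama3, which encodes the alpha chain of laminin 332, held 5 peaks at 12497760 to 12513025 on chromosome 18, the last of them 595 bp wide. At Lama5, which encodes another laminin alpha chain, 4 peaks began inside the gene 0.791 kb from its start and reached 11.1 kb upstream, where the widest spanned 879 bp.

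Desmosomes and adherens junctions join keratinocytes to each other. Pkp1, which encodes the desmosomal plaque protein plakophilin 1, held 6 peaks over 23.3 kb of its body (chromosome 1, 135883468 to 135907173). Dsg3, which encodes a desmoglein of the lower epidermis, held 5 within 8.11 kb (chromosome 18, 20510624 to 20519132), the first of them with its midpoint 0.603 kb inside the gene. Nectin1, which encodes a cell adhesion receptor, held 5 over 23.4 kb, and 3 of them were wide, at 602, 715 and 773 bp. Cdh3, which encodes P-cadherin, held 4, from 365 to 499 bp wide. The chain at Perp, a p53-family target of the desmosome, was the shortest of the 48 chains of 4 peaks. That gave it the last place among the 20 chains with most peaks, where ties went to the shorter span. Its 4 peaks lay 0.81, 0.836 and 1.37 kb apart across the gene's lower end, at 18844792 to 18848183 on chromosome 10.

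Some genes of the p53 response had chains at or near their starts. Genes of this response are switched on by p53 after stress. The Sfn chain, at a gene for the cell cycle regulator 14-3-3 sigma, had 6 peaks on chromosome 4 at 133595670 to 133607830, on both sides of a gene of under 2 kb. One of them, at -3.08 kb from the Sfn start, was 827 bp wide and lay inside the neighbouring gene Zdhhc18. The peak at -5.43 kb also lay inside Zdhhc18, and the midpoint of that at -2.17 kb was 0.21 kb from that gene's boundary. At Cdkn1a, 3 peaks lay at 29090751 to 29094758 on chromosome 17. The first, 419 bp wide, had its midpoint 0.019 kb before the annotated start at the gene's lower edge. It held the full-site match printed above. At Mdm2, which encodes the ubiquitin ligase that restrains p53, 3 peaks lay 0.638 kb inside the gene and 0.899 and 7.0 kb upstream of its start.

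Among keratins, the Krt5 chain had 3 peaks and held the widest peak of any chain, with widths of 863, 1166 and 451 bp at 101713473 to 101717692 on chromosome 15. Its gene makes a type II keratin found in basal cells, and the midpoints lay 0.999, 2.14 and 4.56 kb upstream of its start. Krt6a counted the same chain at 19.6 kb. A chain of 5 lay between Krt42 and Eif1 on chromosome 11 (100284044 to 100290655), 14.1 kb from Krt42, with widths of 212, 396, 669, 615 and 313 bp; Krt17 counted 2 of those peaks at 23.1 kb or more. Krt14, the type I partner of Krt5, had 1 peak in range and no chain.

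The AP-1 gene Junb had 6 peaks over 10.2 kb of chromosome 8 (84974476 to 84985063), on both sides of the gene and into Prdx2, which encodes a peroxiredoxin. Their widths were 272, 265, 592, 406, 225 and 416 bp, and the closest 2 were 0.382 kb apart. Runx1, which encodes a transcription factor of hair follicle stem cells, held 3 peaks. Trp63, which encodes p63, had 4 peaks in range but no chain, and its closest neighbours were 8024 bp apart. Zfp750 had 3 and the hemidesmosomal integrin gene Itgb4 had 4, in groups of at most 2.

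Signalling genes with a chain included Wnt4, which held 4 peaks from 0.596 to 14.5 kb inside its start, and Wnt10a, whose chain of 4 also counted for its neighbour Wnt6. Ereg, the gene of the growth factor epiregulin, had 3 peaks 16.7 kb or more away, and they lay between it and Areg. The Notch effector gene Hes1 had 3 peaks with midpoints 4.96, 6.18 and 8.21 kb from the gene. Sik1, which encodes a salt-inducible kinase, had 5 peaks ending 1.48 kb from the gene, the nearest 806 bp wide. The Sdc1 chains had 4 peaks each in range of the gene, 1 chain inside it and 1 beyond its end with a peak of 902 bp. For cell shape and movement, chains lay inside Rac1, Actn1 and Amotl1 and within 25 kb of Bcar3 and Actn4, with 3 peaks each.

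Several of the largest chains lay at genes on none of the lists. Snap47, which encodes a SNARE family protein, and Dlgap1, which encodes a scaffold protein of synapses, had 6 peaks each. The Dlgap1 chain was the longest of all, over 29.0 kb in the last part of a gene of 852.3 kb. Its next gene, Tgif1, lay 88.2 kb away. Celsr1, a gene of planar cell polarity, and Cuedc1 held 5 each. Chains of 5 also crossed the ends of Mlycd and Osgin1, of Nop53 and Ehd2, and of Mapkapk3 and Cish. The closest-packed chain, at Tnks2, had 3 peaks of 388, 462 and 354 bp within 1301 bp. The next shortest spans were at Ppp1r13l (1.43 kb), Pdlim1 (1.73 kb), Spef1l (1.74 kb) and Lrrc28 (1.78 kb). After Dlgap1, the longest were near Laptm4a (25.6 kb), at Mapkapk3 and Cish (24.3 kb), at Fam110c (24.2 kb) and in Nectin1 (23.4 kb).

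Across 17 gene lists, 29 of 200 keratinocyte genes had a chain peak inside or within 25 kb (14.5%, interval 10.3 to 20.05) and 1 of 90 genes of other cell types did (1.11%, interval 0.196 to 6.03). Of all 20560 protein-coding genes, 371 did, which is 1.8%. The 29 genes shared 27 chains. Of the 29, 17 had a chain peak inside the gene. Any p63 peak was in range of 147 keratinocyte genes (73.5%), 20 genes of other cell types (22.2%) and 6336 of all protein-coding genes, or 30.8%. Of the genes with any peak in range, a chain was in range of 19.7% of the keratinocyte genes, 5.0% of those of other cell types and 5.86% of all. Median gene length was 24.1 kb in the keratinocyte lists, 23.7 kb in the other lists and 17.6 kb over all genes. It was 25.3 kb for the 371 genes with a chain in range and 26.5 kb for those with any peak in range. The lists were chosen with earlier results of these data known, so the counts are descriptions and were not tested.

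The keratin list, labelled basal keratins in the figure, holds Krt6a, Krt6b, Krt16 and Krt17 beside Krt5, Krt14 and Krt15. Its 3 of 7 genes with a chain were Krt5, Krt6a by the Krt5 chain, and Krt17 by a chain 23.1 kb away. Krt14 and Krt15 had no chain. In other lists, 5 of 18 desmosome and adhesion genes and 4 of 17 hemidesmosome and basement membrane genes had a chain. So did 5 of 27 p53 response genes. In the p53 list these were Sfn, Perp, Cdkn1a, Mdm2 and Btg2, an anti-proliferation gene with 1 chain peak at 22.0 kb. Of 23 genes of Wnt, BMP and TGF-beta signalling, 3 did. Lower shares came from the Notch pathway (1 of 16, Hes1), epidermal transcription factors (2 of 33), EGF and FGF receptor signalling (1 of 17, Ereg) and terminal differentiation (1 of 23, Ivl, the involucrin gene). In these 4 lists, peaks were common without chains: any peak was in range of 9, 23, 12 and 15 genes. Peaks without chains were also common in lists with higher shares. Any peak was in range of all 17 hemidesmosome and basement membrane genes, 13 of 18 desmosome and adhesion genes and 20 of 27 p53 response genes. Rbfox3, a neuronal splicing factor gene, was the 1 gene of another cell type with a chain, and the other 6 such lists had 0 of 75, which allows a share of up to 4.0% when the limit is set at 3 counts of the total rather than by a Wilson interval.

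**Figure D5:**
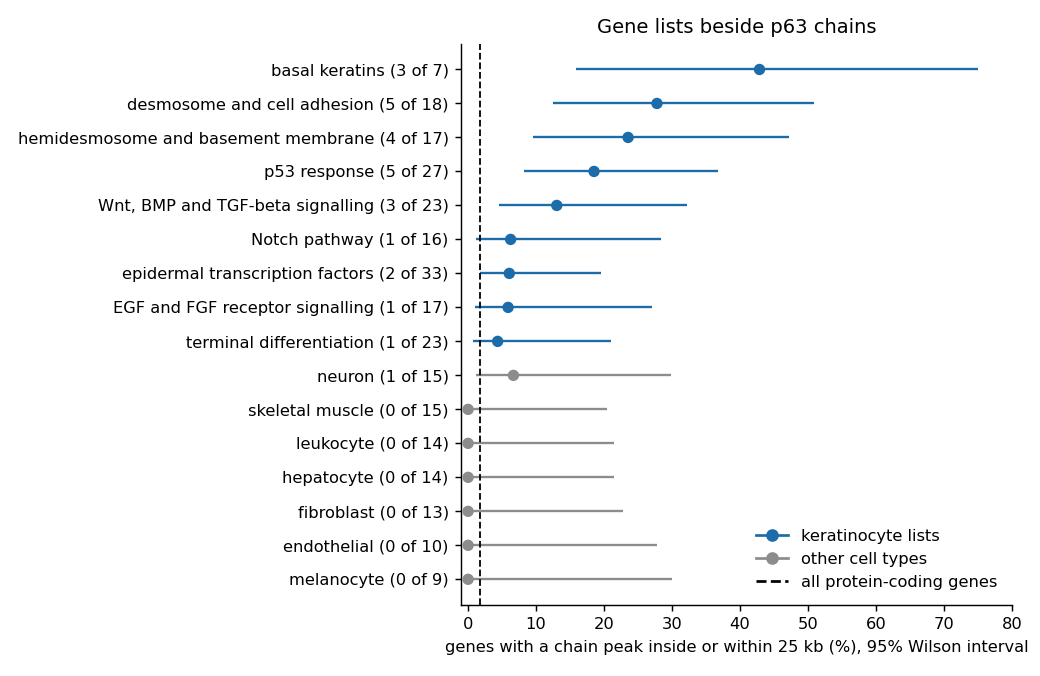
Share of the genes of 16 lists with a chain peak inside or within 25 kb, in percent, with 95% Wilson intervals; the dashed line is the 1.8% of all protein-coding genes. Keratins (labelled basal keratins, with Krt6a, Krt6b, Krt16 and Krt17 among them), adhesion, hemidesmosome and p53 response genes lie between 18.5% and 42.9%. At 0 lie 6 lists of other cell types.

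Chains without a protein-coding gene were also found. The 66 chains between genes lay a median of 19.6 kb from the nearest one, 29 of them over 25 kb and 16 over 100 kb away. The most peaks in a chain between genes was 5, found in the chains near Krt42 and Sik1 and in both of those above Mir205. One overlapped the host gene Mir205hg and spanned 193508030 to 193527005 on chromosome 1, with peaks of 589, 747, 215, 660 and 481 bp; its nearest protein-coding gene, Camk1g, was 137.7 kb away. The other followed after 19.7 kb and had widths of 234, 444, 289, 681 and 423 bp. In all, 13 of 919 microRNA genes (1.41%) lay within 25 kb of a chain's extent. Of protein-coding genes, 1.8% had a chain peak in range. That count used peak midpoints rather than chain extents, over genes with a median length of 17.6 kb. The shares of microRNA and protein-coding genes are therefore not directly comparable. After Mir205 the nearest were Mir7031 at 0.916 kb, Mir6930 at 6.12 kb, Mir3097 at 12.0 kb and Mir202 at 12.5 kb. Mir7686, Mir7062, Mir7032, Mir3091, Mir343, Mir7041, Mir6896 and Mir8090 lay 12.6 to 23.8 kb away.

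The nearest genes of the 16 chains over 100 kb away were Camk1g and Hes1, each for 2 chains, and Zbtb20, Mmadhc, Fbxo15, Lrrc4c, Prkd1, Maf, Jag1, Tmx1, Gm11677, Myc, Cadm1 and Fst. These and the chains described next were named after their values were seen. A chain of 3 wide peaks (771, 743 and 902 bp) lay 365.8 kb from Myc, which encodes a growth-promoting transcription factor. Another chain with Myc as its nearest gene held 4 peaks, lay 84.9 kb away and overlapped the non-coding gene Pvt1. A pair of chains lay 149.4 and 118.4 kb from Hes1, beside the chain next to that gene, and 1 chain each lay 481.7 kb from the Notch ligand gene Jag1 and 147.6 kb from Maf. Nearness does not show that a chain acts on the gene. The most remote chain, at 98662235 to 98667347 on chromosome 2, was 1030.6 kb from Lrrc4c and had widths of 756, 406 and 1147 bp. That stretch of mm10 is known from other ChIP-seq work for high signal in input chromatin; no list of such regions was applied here, and its part in this chain was not tested.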

How the data were processed

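Per the labels, the authors made the deposited p63 peak list with IDR, a method that keeps peaks found reproducibly, from both p63 libraries, with antibody 4A4. Bowtie 1.1.1 and SAMtools 1.1 appear in the submitters' processing notes, with mm10 as the build. The peak caller is not given in the sources used here, nor are its thresholds. Each peak is a row of 3 columns for chromosome, start and end, without a score. Starts were made 1-based, and a midpoint is the mean of start and end.

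Genes came from a RefSeq table of GRCm38.p6. Of 47042 gene rows on chromosomes 1 to 19, 328 with an end below 3 Mb, taken as positions of unplaced scaffolds, were left out, which left 46714 genes, 20560 of them protein-coding. Of 293 list entries 291 matched; Eda2r and Syn1 did not, since only genes of these chromosomes were used. Promoter windows reach from 250 bases before to 50 after a start and covered 16457 of the protein-coding genes, none on chromosome 18. Motifs in whole peaks were planned but not run, since no genome was at hand.

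The members, lists and naming rule were chosen with earlier results of these data known. The text names the 20 chains with most peaks (ties by shorter span), the 5 longest and 5 shortest chains, the 3 closest and 3 widest spaced, list genes with a chain, microRNA genes within 25 kb and 16 fixed genes. The count of 1 list is not reported here. Other genes were named after their values were seen. With 1 joint list there is no test over samples. Joining was checked on simulated data. Python 3.11.15, numpy 2.4.6, pandas 2.3.3, scipy 1.17.1 and matplotlib 3.10.9 were used. Alternatives changed the joining distance, the minimum number of peaks, the peaks used and the gene distance.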

Additional observations from a re-analysis of the deposited data

How the results depend on the processing

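No paired analysis was possible because MK1 and MK2 were merged into 1 peak list, and for the same reason neither line could be left out. The number of chains, 228, and the share of peaks in chains, 9.38%, followed the rule: 109 chains and 4.22% with joining at 5 kb, 438 and 18.9% at 20 kb, 1054 and 29.3% with at least 2 peaks, 67 and 3.56% with at least 4, and 131 and 7.04% without the narrowest peaks (limit 242 bp). The width difference between chain peaks and peaks in no chain was 24.0 to 35.5 bp under the alternatives for which it was computed. The share of chains overlapping a gene was 81.6% when all annotated genes counted.

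Of the 200 keratinocyte genes, 18 had a chain with joining at 5 kb and 42 with joining at 20 kb, against 29 in the report. There were 49 with a gene distance of 100 kb and 21 without the narrowest peaks. The number was 25 with a gene distance of 10 kb and 23 when a chain peak counted only for its nearest gene. Other cell types kept 1 gene under both. Over all protein-coding genes the share was 1.21% at 10 kb and was not computed for the nearest gene. Other cell types had 0 of 90 genes at 5 kb joining, 2 at 20 kb joining, 2 with gaps measured between peak edges and 3 within 100 kb, against 1. Over all protein-coding genes the share was 0.876% at 5 kb joining, 3.64% at 20 kb joining and 4.58% within 100 kb. Leaving out chromosome 2, or the most remote chain (an alternative chosen after seeing the data), kept the numbers of chains and of list genes within 1.5 times and left the share of peaks in chains, the width difference and the share of chains overlapping a gene close to their values in the report; the share over all protein-coding genes was not recomputed for either. Unknown depth limits every chain: a missed weak peak can split or remove one.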
